A study of Mus musculus with 14 samples.

Results

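The clustered histone genes of the mouse were described in 7 groups of libraries from a study of Dppa5a, a small RNA-binding protein of pluripotent cells. They were taken as every gene symbol that begins with Hist1h, Hist2h, Hist3h or Hist4h, which gave 68 genes among the 24346 symbols of the RNA-seq tables and the same 68 among the 24394 symbols of the count tables. By the class in the symbol, 6 genes belong to H1, 18 to H2A, 19 to H2B, 12 to H3 and 13 to H4. The H2B class includes Hist3h2bb-ps, annotated as a pseudogene. By prefix, 54 belong to Hist1 on chromosome 13, 10 to Hist2 on chromosome 3, 3 to Hist3 on chromosome 11 and 1 to Hist4 on chromosome 6. On the mm10 build the Hist1 genes lie in 2 blocks, with 23 genes between 21715713 and 22043658 and 31 genes between 23531044 and 23934913. The study compared splicing between stem cells, fibroblasts and knockdown cells, and looked for RNAs bound by Dppa5a with and without a treatment called HU, a name the labels do not spell out.

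Each group held 2 libraries. RNA-seq was made from wild type, untreated mouse embryonic stem cells of a home-made line (mESC), wild type, untreated primary mouse embryonic fibroblasts (MEF), wild type, untreated stem cells that served as the knockdown control (KD_control), and untreated stem cells labelled as a Dppa5a knockdown (Dppa5a_KD), whose method of knockdown the sources used here do not give. RNA immunoprecipitation (RIP), in which an antibody pulls down a protein together with the RNA it holds, was made from stem cells that overexpressed 3Flag-Dppa5a. All 6 RIP libraries therefore came from cells with the transgene: 2 with IgG from untreated cells (IgG_RIP), 2 with the Flag antibody from untreated cells (Flag_RIP) and 2 with the Flag antibody after HU (HU_Flag_RIP). No IgG library after HU and no total RNA of the RIP cells was analysed here, so a change in recovery by the antibody and a change in the level of the message in the cell cannot be told apart. The stem cells were grown on inactivated embryonic fibroblasts and passaged on gelatin before harvest. Whether the 2 libraries of a group came from separate cultures is not stated, so the p-values speak of the spread among these libraries alone, and that spread may be technical.

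Histone proteins package DNA: H2A, H2B, H3 and H4 form the core of the nucleosome and H1 binds the linker between nucleosomes. The clustered genes are the replication-dependent ones, transcribed mainly in S phase, and most of their messages have no introns and end in a conserved stem-loop in place of a poly(A) tail, where the stem-loop binding protein Slbp holds them. Some members also make polyadenylated messages, and stem cells, which spend much of their cycle in S phase, are known for high histone mRNA. The sources used here do not say whether the libraries were poly(A)-selected.

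Promoters from RefSeq, on the GRCm38.p6 assembly (mm10), were found for 61 of the 68 genes, 67 of which matched 1 RefSeq gene. They gave 62 promoters, and the 250 bases before each start were searched on both strands for 3 short motifs. CCAAT stood in 82.3% of the 62 promoters, against 33.8% of all 32851 promoters in the table. By class it stood in 6 of 6 H1, 17 of 17 H2A, 17 of 17 H2B and 8 of 10 H3 promoters, but in 3 of 12 H4 promoters. TATAAA stood in 46.8%, against 12.4% of all promoters, and in every class. The octamer ATTTGCAT, the site known for Oct factors, stood in 22.6%, against 1.6% of all promoters: 7 of 17 H2A and 7 of 17 H2B promoters held it and no H1, H3 or H4 promoter did. Neighbouring H2A and H2B genes can be transcribed away from each other and share such a window, so these counts are not independent, and a match describes letters only. One promoter of each class is printed, each of a gene whose message fell after HU and whose values in Flag_RIP and HU_Flag_RIP are given in full. The lines give the 150 bases before the RefSeq start, 5′ to 3′ on the strand of the gene. Capitals mark the 3 motifs, with ATTGG where CCAAT lies on the reverse strand.
Hist1h1b (H1f5, chr13:21780626-21780775, minus strand): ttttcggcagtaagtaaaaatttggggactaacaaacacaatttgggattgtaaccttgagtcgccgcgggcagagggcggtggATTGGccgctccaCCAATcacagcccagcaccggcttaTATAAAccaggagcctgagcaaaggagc
Hist1h2ak (H2ac15, chr13:21753913-21754062, minus strand): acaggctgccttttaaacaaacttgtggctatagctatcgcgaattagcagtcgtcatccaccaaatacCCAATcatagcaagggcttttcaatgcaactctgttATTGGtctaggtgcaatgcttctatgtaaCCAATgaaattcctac
Hist1h2bk (H2bc12, chr13:22035671-22035820, plus strand): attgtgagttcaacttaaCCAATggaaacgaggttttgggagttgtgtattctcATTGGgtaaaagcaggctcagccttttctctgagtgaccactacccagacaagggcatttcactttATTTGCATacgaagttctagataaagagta
Hist1h3i (H3c11, chr13:21783398-21783547, minus strand): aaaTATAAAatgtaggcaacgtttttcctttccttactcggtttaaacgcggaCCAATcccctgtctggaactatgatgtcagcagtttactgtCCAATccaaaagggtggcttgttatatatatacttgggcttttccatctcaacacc
Hist1h4j (H4c11, chr13:21734884-21735033, plus strand): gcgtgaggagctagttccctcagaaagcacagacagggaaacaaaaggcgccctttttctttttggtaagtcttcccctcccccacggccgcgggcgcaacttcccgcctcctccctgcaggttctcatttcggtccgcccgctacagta
The H1 promoter held CCAAT at 66 bases (reverse strand) and 53 bases before the start and TATAAA at 28 bases. In the H2B promoter the octamer began 30 bases before the start, and the H4 promoter held none of the 3 motifs.

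The RIP libraries held 3472020 to 13033886 counts, of which 702016 to 1492111 lay outside Rn45s, Rmrp, Rpph1 and Lars2, and the RNA-seq tables summed to 447684 to 585709 FPKM (fragments per kilobase, scaled to the mapped fragments). Histone genes received 5020 to 49780 counts of a RIP library. Stem cell markers and fibroblast markers went with the labels, as 10 of 10 were higher and 10 of 10 lower in mESC than in MEF. Dppa5a stood at 5125.7 and 5416.7 FPKM in KD_control and at 101 and 358 FPKM in Dppa5a_KD (log2 change -4.78, SE 0.63, adjusted p = 0.0088, limma). Its own message was not higher with the Flag antibody, at 232 and 252 CPM with IgG, 170 and 160 CPM with Flag and 114 and 114 CPM with Flag after HU, where CPM are counts scaled to 1000000 of the library size after TMM (trimmed mean of M-values). Macrophage markers, of which 5 of 6 were tested, moved between the RIP groups: their 6 genes summed to 117 and 47.4 CPM with IgG, 4.67 and 5.5 CPM with Flag and 11 and 38.6 CPM with Flag after HU, with Ptprc and Cd14 at 0 in both Flag_RIP libraries. Their part in the RIP results was not tested.

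After HU, the histone messages recovered with the Flag antibody were lower across all 5 classes. Of 57 histone genes tested, 48 fell and 0 rose between Flag_RIP and HU_Flag_RIP in edgeR's quasi-likelihood test (Benjamini-Hochberg adjusted p under 0.05 over all 10473 genes), where 0.468% of all genes were called lower and 0.143% higher. The median log2 change was -2.22, against -0.00 over all genes tested. Of the 57, 8 passed the filter on low counts through Flag_RIP only, the group where they are high, so their difference is in part given by the filter. Among those that passed it in both groups, 46 of 49 fell, against 0.631% of all such genes. Among all genes tested, 49 were called lower, and 48 of them were clustered histone genes. The remaining one was H2afx, the variant known from DNA damage signalling, whose message can also carry the stem-loop (160 and 59.5 CPM in Flag_RIP, 38.9 and 22.8 in HU_Flag_RIP, log2 change -1.83, SE 0.39, adjusted p = 0.027). Both HU_Flag_RIP libraries lay below both Flag_RIP libraries for 56 of the 57 genes, an arrangement that 15.1% of all genes tested showed.

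**Figure D1:**
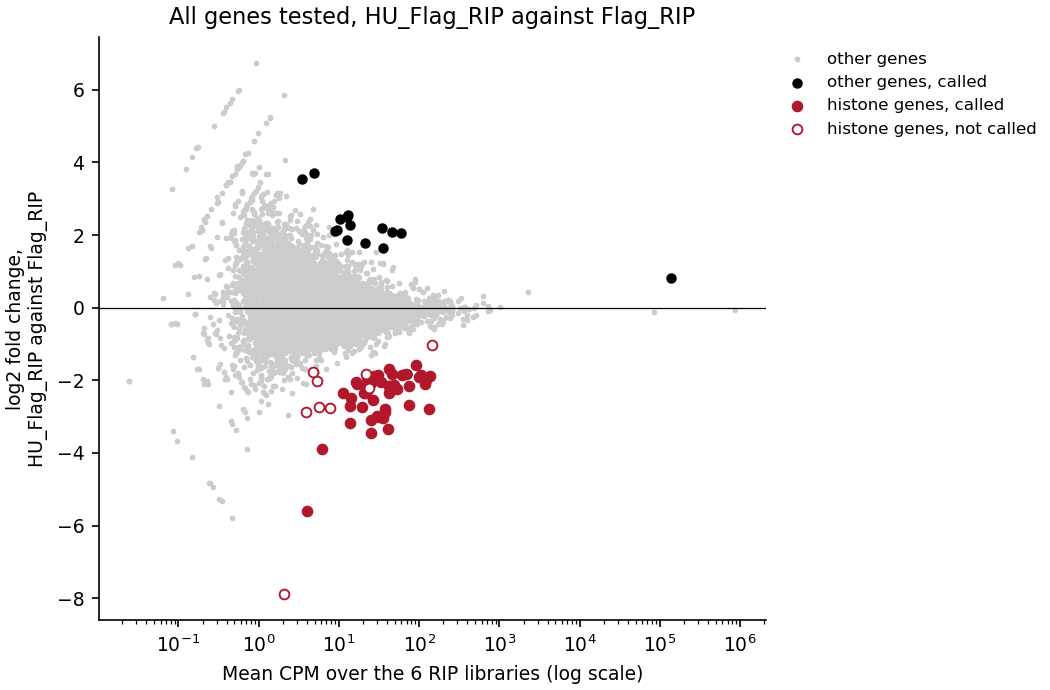
Log2 fold change of HU_Flag_RIP against Flag_RIP for each of 10473 genes (vertical axis) against the mean CPM over the 6 RIP libraries (horizontal axis, log scale). Grey points are other genes, black points other genes that passed the test, and red circles the 57 histone genes tested, filled where called. The histone genes lie below 0, and the lowest of them, Hist3h2bb-ps at a fitted -7.88, had 0 counts in both HU_Flag_RIP libraries, so its fitted value is no bound.

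As a whole the histone genes took 0.382% and 0.234% of the counts in Flag_RIP, with 95% exact binomial intervals of 0.379 to 0.385% and 0.231 to 0.237%. In HU_Flag_RIP they took 0.0732% (0.0715 to 0.0749%) and 0.068% (0.0662 to 0.0699%), and in IgG_RIP 0.248% (0.243 to 0.254%) and 0.26% (0.255 to 0.266%). These intervals cover counting error only, since reads without molecular identifiers are not independent molecules. Scaled by TMM, the sums were 4840.5 and 2765.8 CPM in Flag_RIP, 937 and 824 in HU_Flag_RIP and 1716.1 and 1632.7 in IgG_RIP. The Flag_RIP mean of 3803.2 ± 1467.0 CPM (SD, n = 2) was 4.32-fold the HU_Flag_RIP mean of 881 ± 79.9 CPM (SD, n = 2). The first Flag_RIP library was the higher one for 56 of the 68 genes and the second for 4, and the groups still did not overlap.

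**Figure D2:**
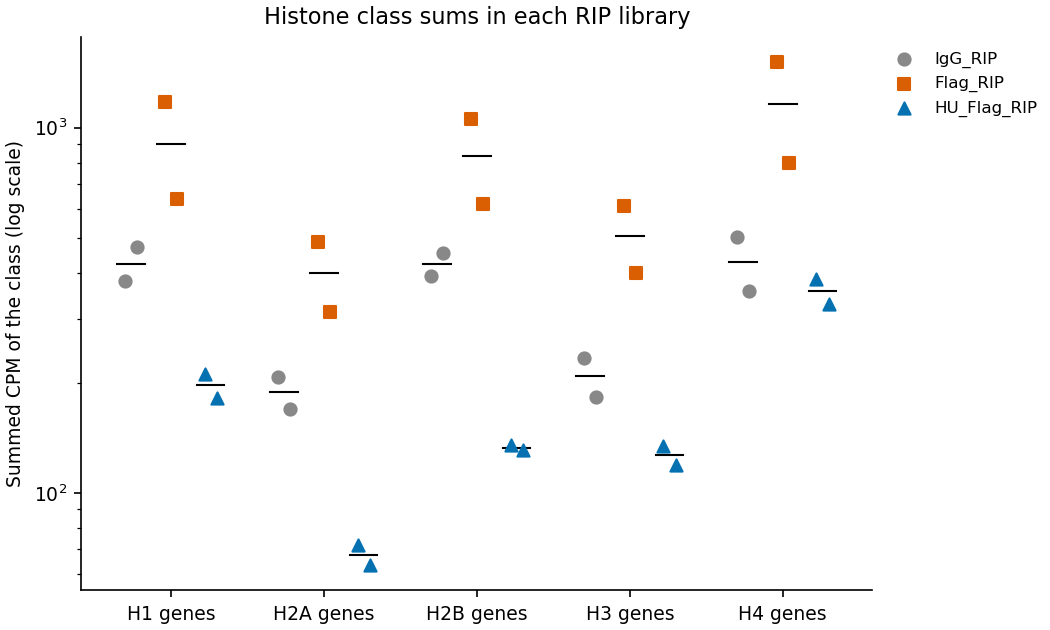
Summed CPM of each histone class (log scale) in each of the 6 RIP libraries, 1 point per library, by group. In every class both HU_Flag_RIP libraries lie below both Flag_RIP libraries, from 384 and 329 against 1513.7 and 801 CPM for H4 to 72 and 63.4 against 486 and 312 CPM for H2A.

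All the H1 genes tested but Hist1h1t were called lower after HU, 5 of 6, with a median log2 change of -2.14. Hist1h1b encodes a replication-dependent linker histone of dividing cells. It stood at 317 and 145 CPM in Flag_RIP, 35.5 and 30.9 CPM in HU_Flag_RIP and 109 and 148 CPM in IgG_RIP, so the libraries after HU were the lowest of the 3 groups (log2 change from Flag_RIP -2.80, SE 0.34, adjusted p = 1.3e-04). Hist1h1c, a linker histone that also makes a polyadenylated message, went from 145 and 101 CPM to 27.4 and 27.4 CPM, against 77.7 and 83.3 CPM with IgG (-2.17, SE 0.29, adjusted p = 3.6e-04). Hist1h1e fell by 1.98 and Hist1h1a by 2.11 on the log2 scale. Hist1h1t, a linker histone known from testis, was rare, at 7.68 and 6.12 CPM in Flag_RIP and 1.46 and 0.328 in HU_Flag_RIP, and did not pass the test.

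Among H2A genes 11 of 14 fell, with a median of -2.43. Hist1h2aa, among the 11, had passed the filter through Flag_RIP only. Hist1h2ak went from 74.4 and 53.1 CPM in Flag_RIP to 9.7 and 5.75 in HU_Flag_RIP, below the 30.3 and 23.9 CPM of IgG_RIP (log2 change -3.03, SE 0.36, adjusted p = 1.3e-04). Hist3h2a, from the small cluster on chromosome 11, went from 63.1 and 28 CPM to 4.12 and 4.27 CPM (-3.44, SE 0.43, adjusted p = 1.7e-04), with 12.3 and 11 CPM in IgG_RIP. Hist1h2ag fell by 3.17 and Hist1h2ah by 2.73 on the log2 scale. Hist2h2ab was the only one of the 57 genes whose groups overlapped, at 11.7 and 3.25 CPM against 3.32 and 0.985 CPM. Hist1h2ad and Hist2h2ac also missed the threshold.

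The H2B genes had the lowest median, -2.77, and 13 of 16 fell. Hist1h2ba, among the 13, had passed the filter through Flag_RIP only. Hist1h2bk stood at 87.9 and 59.2 CPM in Flag_RIP, 5.05 and 9.69 CPM in HU_Flag_RIP and 44.4 and 62.5 CPM in IgG_RIP (log2 change from Flag_RIP -3.33, SE 0.38, adjusted p = 1.3e-04). Its Flag_RIP and IgG_RIP libraries overlapped, while its HU_Flag_RIP libraries lay far below both. Hist1h2bc fell by 3.00, Hist1h2bb by 2.97 and Hist1h2bm by 2.87 on the log2 scale. Hist3h2bb-ps, annotated as a pseudogene, had 0 counts in both HU_Flag_RIP libraries and 5.93 and 2.25 CPM in Flag_RIP, at least 19.6-fold higher in Flag_RIP when 3 counts over the HU_Flag_RIP group are taken as the floor. It was not called, and neither were Hist1h2bp and Hist3h2ba.

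Of the H3 genes 9 of 10 fell, with a median of -2.05, and of the H4 genes 10 of 11, with a median of -1.86. Hist1h3f fell by 2.30, Hist1h3i by 2.16 and Hist2h3b by 2.08 on the log2 scale. Hist1h3d went from 70.7 and 37.1 CPM to 13.2 and 13 CPM (-2.05, SE 0.36, adjusted p = 0.0055), which is above its 5.97 and 5.59 CPM in IgG_RIP, unlike Hist1h3i at 46.1 and 28.7, then 8.24 and 8.54 CPM, against 25.3 and 25.9 CPM with IgG. Hist1h4j stood at 92 and 67.2 CPM in Flag_RIP and 18.9 and 17.2 in HU_Flag_RIP (-2.14, SE 0.31, adjusted p = 9.4e-04). Hist1h4b fell by 2.16, Hist1h4f by 1.85 and Hist1h4i by 2.21 on the log2 scale. Hist1h4a had the change nearest to 0 of all 57 genes, from 247 and 138 CPM to 102 and 85.9 CPM (-1.04, SE 0.30, adjusted p = 0.33), and Hist1h3h was the H3 gene that missed the threshold. Hist1h3d did not keep its call without the first Flag_RIP library (-1.51, adjusted p = 0.22).

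By position, 15 of 17 genes of the Hist1 block between 21715713 and 22043658 fell (median -2.55), 28 of 31 of the other Hist1 block (median -2.16), 3 of 5 of Hist2, 1 of 3 of Hist3 and the single Hist4 gene. The class sums differed in size of change: the Flag_RIP mean was 6.3-fold the HU_Flag_RIP mean for H2B, 5.89-fold for H2A, 4.59-fold for H1, 3.99-fold for H3 and 3.24-fold for H4. The ratio of the H4 sum to the H2B sum was 1.43 and 1.3 in Flag_RIP and 2.84 and 2.51 in HU_Flag_RIP, with no overlap, and 1.28 and 0.786 in IgG_RIP. An exact permutation test of 2 libraries against 2 cannot go below a two-sided p = 0.333, which was the value for this ratio and for the ratios of H4 to H1, H2A and H3. H4 made up 31.3% and 29% of the histone counts in Flag_RIP and 41% and 39.9% in HU_Flag_RIP, while H2B made up 21.9% and 22.3%, then 14.4% and 15.8%.

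The other genes of histone supply were mostly not called. Of 20 S-phase genes such as Pcna and the Mcm helicase subunits, 0 were called, with log2 changes between -0.49 and 0.99. None of 25 genes of histone message transcription and 3′ end processing (Slbp, Npat, the Lsm10 and Lsm11 proteins of the U7 particle and others) was called, with changes between -0.92 and 0.99, and none of 16 histone chaperone genes, between -0.60 and 0.53. Among 11 replication-independent histone genes only H2afx was called. At an unadjusted p under 0.05, 57 of the 57 clustered genes were lower, and 179 of all 10473 genes tested. The 50 histone genes with a length implied by the authors' FPKM confidence bounds were all among the shortest 10% of genes, and the other genes of that length had a median change of -0.05 with 0% called lower.

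Without HU and scaled by TMM, the Flag antibody recovered more histone message than IgG, most clearly for H4 and for the Hist1 block that starts at 23531044. As a share of all counts the groups overlapped, at 0.382% and 0.234% with Flag and 0.248% and 0.26% with IgG. Outside Rn45s, Rmrp, Rpph1 and Lars2 the share was 3.34% and 1.99% with Flag and 1.23% and 1.15% with IgG. Of the 57 genes, 20 were higher and 0 lower in Flag_RIP than in IgG_RIP, where 1.16% of all genes were called higher and 1.16% lower. The median log2 difference was 1.18, against 0.02 over all genes. Through Flag_RIP only 5 of the 57 had passed the filter, and of the 52 that passed it in both groups 17 were higher, against 1.08% of all such genes. All 57 differences were above 0, against 5356 of all 10473 genes tested. Both Flag_RIP libraries lay above both IgG_RIP libraries for 50 of the 57, and for 2488 of the 10473. By class, 8 of 11 H4 genes were called, 5 of 10 H3 genes, 3 of 14 H2A genes, 3 of 16 H2B genes and 1 of 6 H1 genes. Of these, Hist1h2aa in H2A and Hist1h2ba and Hist3h2ba in H2B had passed the filter through Flag_RIP only. By position, 16 of 31 genes of that block were called, Hist1h2aa and Hist1h2ba among them, and 2 of 17 in the other Hist1 block.

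Hist1h4c stood at 19.1 and 19.6 CPM in IgG_RIP and 94.8 and 49.2 in Flag_RIP (log2 difference 1.89, SE 0.36, adjusted p = 0.0074). Hist1h4d, the histone message with the most counts per length in Flag_RIP (578 CPM per kb), stood at 81 and 50.1 CPM with IgG and 296 and 130 CPM with Flag (1.70, SE 0.34, adjusted p = 0.011). Hist1h4f was higher by 1.45 and Hist1h4j by 1.42 on the log2 scale. Hist1h3d had the smallest adjusted p of the histone genes, at 5.97 and 5.59 CPM with IgG and 70.7 and 37.1 CPM with Flag (3.22, SE 0.39, adjusted p = 1.4e-04). Hist1h3e was higher by 2.43, Hist1h3f by 1.80 and Hist1h3b by 1.77 on that scale. The called H1 gene was Hist1h1d, at 26.7 and 49.3 CPM against 205 and 109 CPM (2.05, SE 0.35, adjusted p = 0.003). The H1 genes with the most message were not called: Hist1h1b had a difference of 0.85 (adjusted p = 0.18) and Hist1h1e of 1.01 (adjusted p = 0.086).

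The largest differences were in the rare messages of Hist1h2aa, Hist1h2ba and Hist3h2ba, which passed the filter through Flag_RIP only. They were tested and are counted among the genes called higher, but their direction was in part given by the filter. Their levels are therefore given here without test values. Hist1h2aa and Hist1h2ba, an H2A and H2B pair known from testis and next to each other at the end of the Hist1 cluster, were close to absent with IgG. Hist1h2aa had 0 counts in both IgG_RIP libraries, 10.8 and 5.12 CPM in Flag_RIP and 0.133 and 0.164 CPM in HU_Flag_RIP, which makes it at least 30.3-fold higher in Flag_RIP than in IgG_RIP at a floor of 3 counts over the group. Hist1h2ba stood at 0.199 and 0, 18.4 and 4.5, and 0.399 and 1.15 CPM in the same order of groups. In the Hist3 cluster, Hist3h2ba stood at 1.59 and 0 CPM with IgG and 16.5 and 10.7 CPM with Flag, and 1.46 and 2.63 CPM after HU. Of messages that passed the filter in both groups, Hist3h2a was higher by 1.97, Hist1h2ae by 2.22 and Hist1h2bg by 1.50 on the log2 scale. Outside the clusters, of the replication-independent histone genes only H2afy, which encodes macroH2A, was called (12.7 and 15.2 CPM against 39.8 and 29.7 CPM, 1.31, SE 0.34, adjusted p = 0.046).

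This count rested on single libraries and on the scaling. Fewer were called without either IgG_RIP library or without the first Flag_RIP library, among the histone genes and over all genes. The histone medians were then 1.30, 1.12 and 0.71, against 0.09, 0.09 and 0.00 over all genes. Under library size alone 6 were called higher, and 64 of all 10473 genes. The histone median was there 0.26 and that of all genes -0.87. Histone genes thus lay 1.13 above all genes under library size alone and 1.16 above them with TMM. Of the called genes named here only Hist1h3d kept its call under all 14 alternatives, with an adjusted p of at most 0.023. Without the first IgG_RIP library the call of Hist1h1d was lost, without the second those of Hist1h3e and Hist3h2ba, without the first Flag_RIP library that of Hist1h2aa, and the remaining ones were lost when any 1 of these 3 libraries was left out, with adjusted p up to 0.35.

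**Figure D3:**
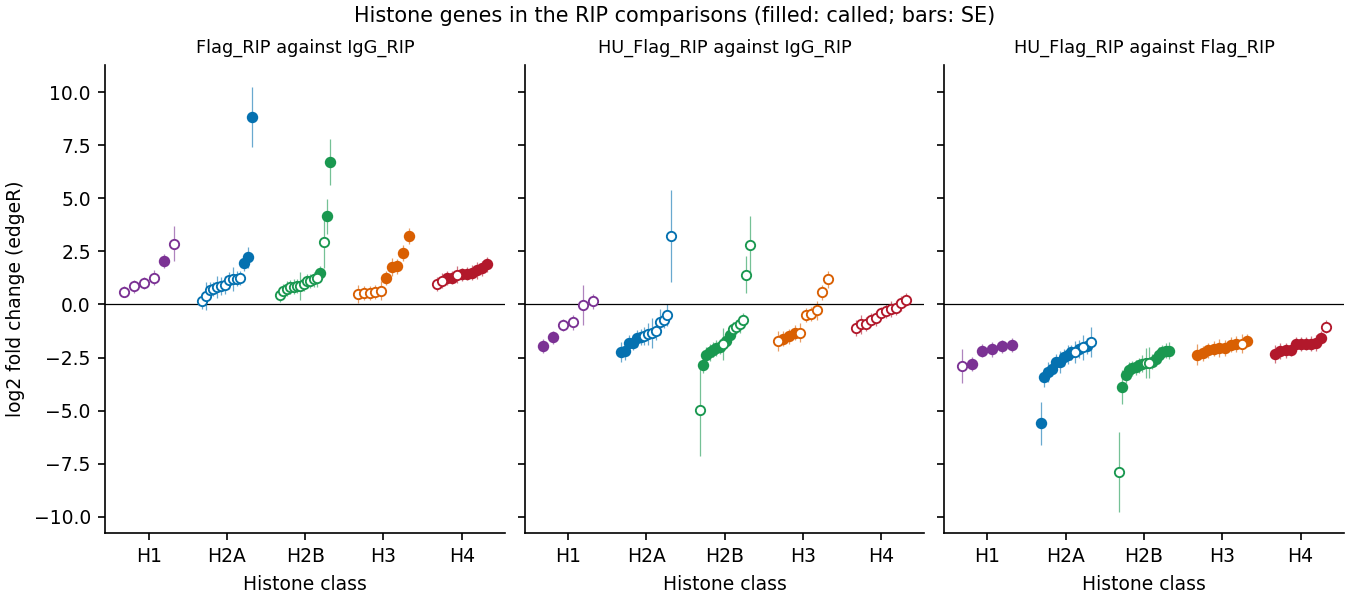
Log2 fold change of each histone gene tested in the RIP comparisons (vertical axis), by histone class (horizontal axis), 1 point per gene with its SE as a bar, filled where called. Points of Flag_RIP against IgG_RIP lie above 0, those of HU_Flag_RIP against Flag_RIP below 0, and the values of Hist1h2aa (8.84 against IgG_RIP) and Hist3h2bb-ps (-7.88) are fitted ones with a group at 0 counts. The comparisons share libraries, so the panels are not independent.

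After HU the histone messages also lay below the IgG level of untreated cells, mainly for H2B and H2A. Of the 57 genes 19 were lower and 0 higher in HU_Flag_RIP than in IgG_RIP, where 1.42% of all genes were called lower and 1.44% higher, and the median log2 difference was -1.09 against 0.04 over all genes. These libraries share the IgG_RIP group with the comparison above and the HU_Flag_RIP group with the one before it. By class 8 of 16 H2B genes were lower, 6 of 14 H2A genes, 3 of 10 H3 genes and 2 of 6 H1 genes. No H4 gene of 11 was called in either direction, with a median of -0.40 and 4 lower at an unadjusted p under 0.05. The log2 difference was -2.87 for Hist1h2bk (SE 0.37, adjusted p = 5.6e-04), -2.36 for Hist1h2bc, -2.14 for Hist1h2bb and -2.00 for Hist1h2bm. Among H1 genes it was -1.95 for Hist1h1b (SE 0.33, adjusted p = 0.0024) and -1.55 for Hist1h1c. Of the H2A and H3 genes, Hist1h2an had -2.19, Hist1h2ak -1.80, Hist1h2ag -2.26, Hist1h2ac -1.82, Hist1h3i -1.61, Hist2h3b -1.51 and Hist1h3g -1.33. The H4 messages Hist1h4a, at 99.4 and 62.5 CPM with IgG and 102 and 85.9 CPM after HU, and Hist1h4d, at 81 and 50.1 against 64 and 52.2 CPM, had overlapping libraries. Without either IgG_RIP library fewer were called lower, among the histone genes and over all genes. The histone median was -0.89 without the first and -1.01 without the second, against 0.10 and 0.08 over all genes. Library size alone called 45 histone genes lower, and 2617 of all 10473 genes. That scaling moved the median of all genes to -0.89 and the histone median to -2.00, and the histone median less that of all genes was -1.11 there and -1.13 with TMM. Of the called genes named here Hist1h2bk kept its call under all 14 alternatives, with an adjusted p of at most 0.036.

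The order of the histone messages in Flag_RIP was another than in the RNA-seq libraries. Per length, among 54 genes with 1 locus, no overlap and a span under 1000 bases, the highest in Flag_RIP were Hist1h4d (578 CPM per kb), Hist1h4f (465), Hist1h4a (423), Hist1h4h (314) and Hist1h1b (291). Hist1h1c, among the 5 highest histone messages by FPKM in every RNA-seq group, was at rank 15, Hist3h2a at rank 27 and Hist1h4i at rank 28. Over these 54 genes the Pearson correlation of log2 levels was 0.133 to 0.188 between Flag_RIP and the RNA-seq groups, and 0.874 between Flag_RIP and IgG_RIP, a description over genes that are not independent and, in the second case, share a protocol. The RIP and RNA-seq libraries differ in cells and protocol, and their levels were set side by side only by rank and by this correlation.

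Coverage of the members differed between the tables. In RIP 11 of the 68 genes were not tested, 10 of them with at most 3 counts in every library (Hist1h2ao, Hist1h2ap, Hist1h2bq, Hist1h2br, Hist1h4m, Hist1h4n, Hist2h2aa1, Hist2h2aa2, Hist2h3c1 and Hist2h3c2), and Hist2h2be. Of these, 8 overlap another member or have several loci, where the authors' counting could leave reads unassigned, and they reached at most 2 counts. In the FPKM tables the overlapping pairs Hist1h2ao and Hist1h2ap, Hist1h4m and Hist1h4n, Hist2h2aa1 and Hist2h2aa2, and Hist2h3c1 and Hist2h3c2 do have values, but how fragments were divided within a pair is uncertain, as it is between Hist1h2bq and Hist1h2br.

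In the RNA-seq libraries most clustered histone genes were low. The median of the gene means was 1.59 FPKM in mESC, 1.34 in MEF, 1.67 in KD_control and 0.865 in Dppa5a_KD, and 58 genes reached a mean of 1 FPKM in some group. A mean of 10 FPKM in some group was reached by 7: Hist1h1c, Hist1h2bc, Hist1h2bg, Hist1h4i, Hist2h2aa1, Hist3h2a and Hist3h2ba. Hist1h2bc was the highest in mESC at 21.5 FPKM, Hist1h1c in MEF at 74.3, and Hist1h4i in KD_control at 33.9 and in Dppa5a_KD at 18.3. The 5 highest genes made up 33.4% of the histone sum in mESC, 61.7% in MEF, 44.6% in KD_control and 45.8% in Dppa5a_KD. Replicates were uneven in the wild type groups: the second mESC library was the higher one for 53 genes and the first for 12, and in MEF the first was the higher one for 49 and the second for 13.

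**Figure D4:**
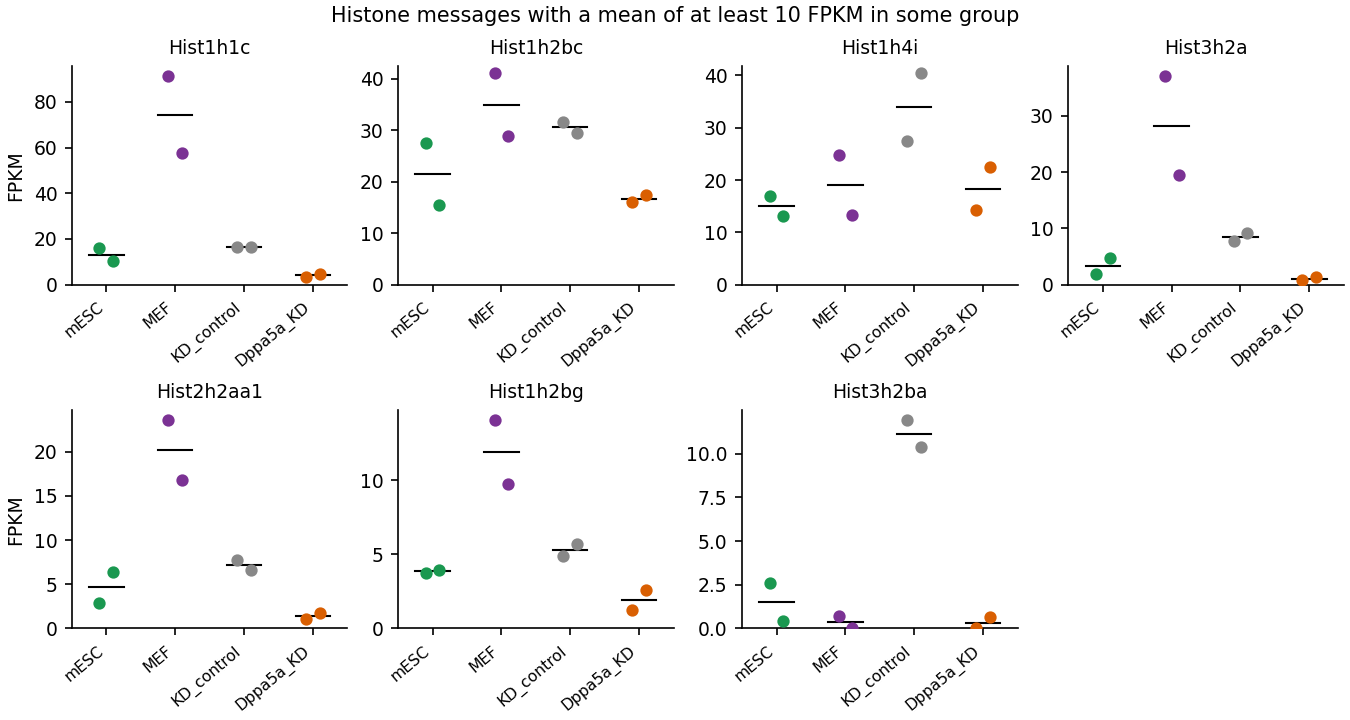
FPKM of the 7 histone genes whose mean reached 10 FPKM in some group, in each of the 8 RNA-seq libraries (points) with the group mean (line). By group mean, Hist1h1c, Hist1h2bc, Hist1h2bg, Hist2h2aa1 and Hist3h2a are highest in MEF, and Hist1h4i and Hist3h2ba in KD_control. Each of the 7 has both Dppa5a_KD libraries below both KD_control libraries, as had 5529 of all 12345 genes tested.

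In Dppa5a_KD the histone messages were lower than in KD_control, among them Hist3h2ba, Hist3h2a, Hist2h2aa1 and Hist1h1c. Of 44 genes tested, 20 fell and 0 rose in limma's test of log2(FPKM + 1), where 23.8% of all genes were called lower and 13.6% higher. The median log2 change was -0.68, against -0.11 over all genes. Both Dppa5a_KD libraries lay below both KD_control libraries for 33 of the 44, and for 5529 of all 12345 genes tested. Of the 44 genes, 14 reached 1 FPKM in KD_control only and 3 in Dppa5a_KD only, and such genes had to differ in that direction. The first 14 held 10 of the 20 that fell, among them Hist3h2ba, Hist1h2ap, Hist1h2ab, Hist1h2bm, Hist2h2be, Hist1h3b and Hist1h4n. Of the 27 genes that reached it in both groups 10 fell, which is 37%, against 20.2% of all such genes. With a filter on the mean over both groups, chosen after seeing the data, 19 of 42 fell, and 2645 of all 11923 genes tested. On the log scale used the change of a low gene is understated. The summed level went from 223 and 233 FPKM to 94.7 and 123 FPKM, a 2.1-fold lower mean (228 ± 7.42 against 109 ± 19.7, SD, n = 2). In bulk samples fewer cells that make a message and less of it per cell cannot be told apart.

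Hist1h1c was the only H1 gene tested and went from 16.7 and 16.7 FPKM to 3.44 and 4.69 FPKM (log2 change -1.81, SE 0.15, adjusted p = 0.006). Of 13 H2A genes 6 fell. Hist3h2a went from 7.68 and 9.22 to 0.809 and 1.3 FPKM (-2.21, SE 0.17, adjusted p = 0.006), and Hist2h2aa1, which shares its locus with Hist2h2aa2, from 7.78 and 6.63 to 1.12 and 1.73 FPKM (-1.77, SE 0.17, adjusted p = 0.0062). Hist1h2ab fell by 0.82 and the overlapping Hist1h2ap by 2.60 on the log2 scale, the latter not called at a pseudocount of 0.1 FPKM (adjusted p = 0.054). Of 11 H2B genes 7 fell. Hist3h2ba, the neighbour of Hist3h2a, went from 11.9 and 10.4 FPKM to a listed 0 and 0.644 FPKM (log2 change -3.24), and the 3 Hist3 genes together had a 14.4-fold lower mean, 1.38 against 19.9 FPKM. Hist1h2bc, the most abundant H2B message, went from 31.6 and 29.4 to 16 and 17.4 FPKM (-0.83, SE 0.11, adjusted p = 0.0083), Hist2h2be fell by 1.24 and Hist1h2bm by 1.52.

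Of 9 H3 genes 4 fell, Hist1h3i by 0.65, Hist1h3b by 0.82, Hist1h3c by 0.59 and Hist1h3g by 0.40 on the log2 scale, and Hist1h3c and Hist1h3g were lost under both rescalings of the FPKM and with no filter, as Hist1h3i was under the common sum (adjusted p = 0.069). Of 10 H4 genes 2 fell, the overlapping Hist1h4n (-0.91) and Hist1h4m (-0.98), the latter without its call with no filter or a common sum of FPKM (adjusted p up to 0.075). Hist1h4i, the most abundant H4 message, stood at 27.4 and 40.4 FPKM and then at 14.2 and 22.5 FPKM without passing the test (-0.86, adjusted p = 0.071). Of the genes near the histones in function, 0 of 20 S-phase genes were called, with changes between -0.56 and 0.67. Among 25 genes of histone message processing and transcription 6 rose and 1 fell, with Srrt, which links histone 3′ processing to the cap complex, up by 1.10, Ccne1 (cyclin E1) up by 0.71, Cstf2t up by 0.47 and E2f1 down (-0.60). Of 17 chaperones 7 rose and 1 fell, among them Ipo4, an importer of histones (1.07), Hira (0.70), Nap1l1 (0.75) and Nasp (0.56). Of 11 replication-independent histone genes 2 rose and 2 fell: H2afz (H2A.Z) went from 414 and 441 FPKM to 825 and 1208.8 FPKM and H2afy2 was higher by 0.69, while the linker histones H1f0 and H1fx changed by -0.92 and -0.93.

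Fibroblast markers, depth and length moved with this result, and their part in it was not tested. The 10 fibroblast markers summed to 213 and 212 FPKM in KD_control and 174 and 142 FPKM in Dppa5a_KD, against 7131.7 and 6046.2 FPKM in MEF, and Fn1 alone held 192 and 190 FPKM of the first and 162 and 132 FPKM of the second. Of the 5 tested 3 were lower in Dppa5a_KD and 0 higher, with a median of -0.73, and Postn was at 0 in all 4 libraries and Col3a1 in all but the second of KD_control. Of the histone genes that fell here, Hist1h1c, Hist3h2a, Hist2h2aa1 and Hist1h2bg were also called higher in MEF than in mESC. Hist1h3g was called higher in mESC. Hist1h2ac, Hist1h2bm and Hist2h2be were not tested between mESC and MEF, and the others that fell were not called there. Hist3h2ba stood at 0.704 and 0 FPKM in MEF and Hist2h2be at 0.416 and 0.317 FPKM. Behind a histone value stood a median of 14.2 fragments in KD_control and 4.9 in Dppa5a_KD, as implied by the authors' confidence bounds. Of 39 tested genes with such a length 38 were among the shortest 10% of genes, and the other genes of that length had a median change of -0.32 with 17.1% called lower. Rescaling the FPKM by median ratios moved the median of all genes by more than 0.1, from -0.11 to 0.05, and the histone median lay 0.57 below all genes as deposited and 0.63 below them then. Without the second Dppa5a_KD library calls rose among the histone genes and over all genes. The histone median was then -0.77, against -0.14 over all genes. Without the first KD_control library Hist1h2bc lost its call (adjusted p = 0.054), as did Hist1h3i, Hist1h3c and Hist1h3g without either KD_control library (adjusted p up to 0.45).

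**Figure D5:**
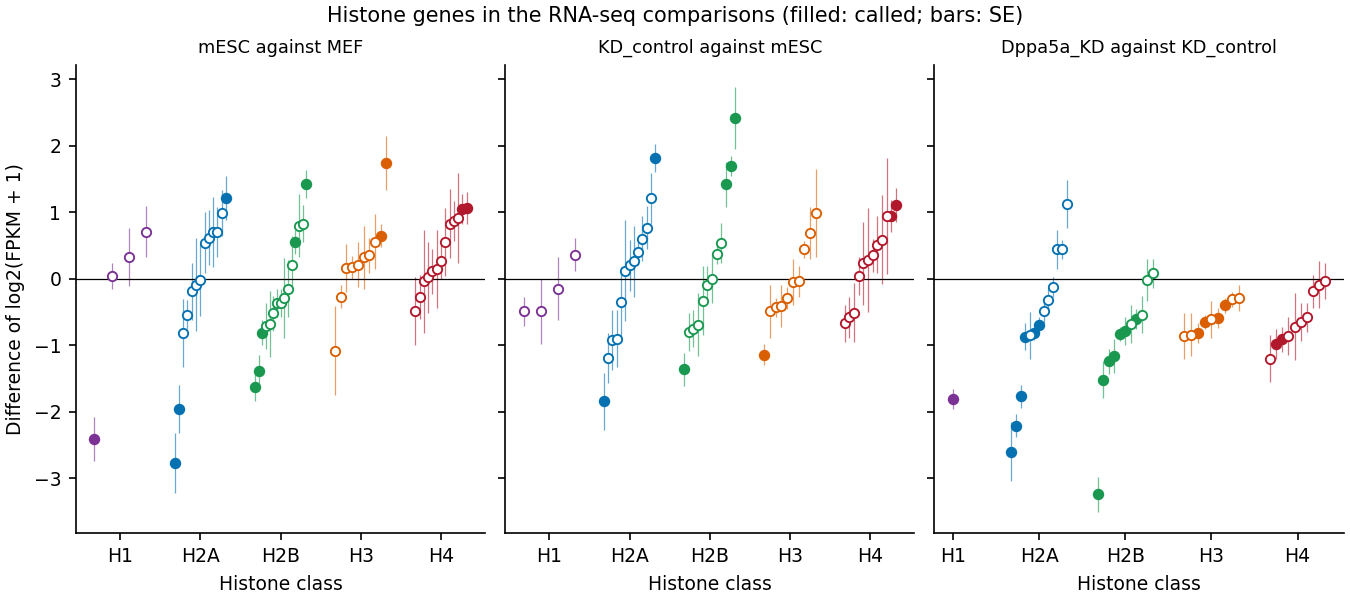
Log2 difference of log2(FPKM + 1) of each histone gene tested in the RNA-seq comparisons (vertical axis), by histone class (horizontal axis), 1 point per gene with its SE as a bar, filled where called. Most points of Dppa5a_KD against KD_control lie below 0 (40 of 44, and 7158 of all 12345 genes tested). Those of mESC against MEF (32 of 55 above 0) and KD_control against mESC (27 of 51 above 0) lie on both sides.

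Between stem cells and fibroblasts most histone messages were not called, and a few abundant ones were far lower in stem cells. Of 55 genes tested 7 were higher and 6 lower in mESC than in MEF, where 30.6% of all genes were called higher and 26.1% lower, so neither share of the histone genes exceeded the background. Of the 36 that reached 1 FPKM in both groups 4 were higher and 5 lower, against 26.8% and 19.9% of all such genes. The median log2 difference was 0.16 against 0.15 over all genes, and the histone sums overlapped, at 155 and 226 FPKM in mESC and 353 and 220 FPKM in MEF. Of the 5 most abundant in MEF, Hist1h1c, Hist3h2a and Hist2h2aa1 were lower, and Hist1h2bc and Hist1h4i were not called. Hist1h1c stood at 16 and 10.2 FPKM in mESC and 91.2 and 57.5 FPKM in MEF (-2.41, SE 0.33, adjusted p = 0.0026), and carried the H1 sum with it, 19.7 and 14.9 against 93.7 and 60.2 FPKM. Hist3h2a stood at 1.87 and 4.8 against 37 and 19.4 FPKM (-2.77, SE 0.45, adjusted p = 0.0046), Hist2h2aa1 at 2.93 and 6.36 against 23.6 and 16.8 FPKM (-1.96, SE 0.36, adjusted p = 0.007). The H2B genes Hist1h2bl (-1.63), Hist1h2bg (-1.39) and Hist1h2bn (-0.81), which reached 1 FPKM in MEF only, were also lower.

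Higher in mESC were Hist1h2bp (1.42), Hist1h2bf (0.55), Hist1h2ae (1.22), Hist1h3g (1.74), Hist1h3e (0.65), Hist1h4j (1.05) and Hist4h4 (1.07), which was listed at 0 in both MEF libraries and at 1.6 and 0.687 FPKM in mESC. Of these Hist1h2bf, Hist1h4j and Hist4h4 reached 1 FPKM in mESC only. These genes had low levels, none above 10.3 FPKM in a mESC library. Of the 20 S-phase genes 13 were higher in mESC and 0 lower, led by Mcm2 (2.32), Rpa2 (1.96), Mcm5 (2.14) and Cdc6 (1.38). Of 25 genes of histone message processing and transcription 12 were higher and 1 lower, with Zfp473, a zinc finger protein of the U7 machinery, at 2.78, Coil (coilin) at 2.53, Pou2f1 (Oct1, the factor known to bind the octamer) at 2.23 and Ccne1 at 1.84. Of 17 chaperones 8 were higher, including Nasp (1.98), Daxx (1.77), Supt16 (1.60) and Asf1a (1.33). Among 11 replication-independent histone genes H2afz (1.29), H2afv (1.26) and H2afx (1.23) were higher and H1f0, a linker histone known from differentiated cells, lower (-1.90). The histone counts moved when a library was left out. The histone median was 0.61 without the first mESC library and -0.23 without the second, against 0.22 and 0.07 over all genes. It was 0.33 without the first MEF library and -0.06 without the second, against 0.16 and 0.13 over all genes. Of the genes named, Hist1h2bl kept its call without any 1 library and Hist1h1c lost it without the first MEF library (adjusted p = 0.059), while the others except Hist1h2bf, which was not followed, reached adjusted p of 0.069 to 0.22 without 1 library or another. Median-ratio scaling gave 5 higher and 7 lower.

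The stem cells of the knockdown control differed from mESC in a few histone genes, a contrast in which line, handling and sequencing run cannot be told apart, as the Y-linked Eif2s3y stood at 43.2 and 41.2 FPKM in mESC and was listed at 0 in KD_control and Dppa5a_KD. Of 51 genes 6 were higher and 3 lower in KD_control, where 26.5% of all genes were called higher, 15% lower, while the histone median was 0.04 against 0.19 over all genes. Of the 37 that reached 1 FPKM in both groups 3 were higher and 1 lower, against 21.5% and 14.9% of all such genes. The fibroblast markers summed to 83.4 and 90.2 FPKM in mESC and 213 and 212 FPKM in KD_control, and their part was not tested. Hist3h2ba, so low in Dppa5a_KD, stood at 2.58 and 0.446 FPKM in mESC and 11.9 and 10.4 FPKM in KD_control (2.42, SE 0.47, adjusted p = 0.023). Hist2h2be was higher by 1.69, Hist1h2ap by 1.82, Hist1h2bm by 1.42, Hist1h4i by 1.11 and Hist1h4a by 0.95, while Hist1h3e (-1.14), Hist1h2bp (-1.36) and Hist1h2ao (-1.84) were lower. Among these, Hist2h2be, Hist1h2bm and Hist1h4a reached 1 FPKM in KD_control only, and Hist1h3e and Hist1h2ao in mESC only. Such genes had to differ in that direction. Hist1h1c, at 16 and 10.2 against 16.7 and 16.7 FPKM, was not called (0.36, adjusted p = 0.29). Median-ratio scaling gave 5 higher and 6 lower, and a common sum of FPKM gave 5 and 5. Leaving out either mESC library raised the calls over all genes as well as the histone calls. The histone median was -0.45 without the first, against 0.11 over all genes, and 0.41 without the second, against 0.28. Without 1 KD_control library or the other, Hist1h4i, Hist1h4a, Hist1h2bp and Hist1h3e lost their calls (adjusted p up to 0.26).

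The 20 genes higher in Flag_RIP than in IgG_RIP and the 20 lower in Dppa5a_KD than in KD_control come from separate libraries, and 37 genes were tested in both comparisons. Of the first 20, 14 were tested in the knockdown, and of the second 20, 15 were tested in RIP. In both lists stood 5 genes, 5 of those 14 and 5 of those 15: Hist1h2bg, Hist1h3b, Hist1h3c, Hist3h2a and Hist3h2ba. Hist3h2a was thus called in Flag_RIP against IgG_RIP, in the knockdown and in HU_Flag_RIP against Flag_RIP. The first and last of these comparisons share the Flag_RIP libraries, so their calls are not independent. Of the 8 H4 genes higher in Flag_RIP none was called in the knockdown, where Hist1h4c was not tested. Hist3h2ba had passed the filters through Flag_RIP only and KD_control only, so its direction was in part given by them in both comparisons. Hist1h3b had passed the filter of the knockdown through KD_control only. Whether this overlap exceeds what the sizes of the lists give was not tested.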

How the data were processed

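RNA-seq tables held FPKM per locus with confidence bounds, as deposited by the authors, and RIP tables held whole read counts per gene symbol, as deposited by the authors. The submitters' processing notes name, with no role, HTSeq 0.6.1, Cuffdiff 2.1.1, Cufflinks 2.1.1, TopHat2 2.0.8, CASAVA 2.19 and the mm10 build. Strand, poly(A) selection and the handling of multiply mapped reads are not given in the sources used here. The NEBNext Ultra RNA kit was used on Trizol-extracted RNA, per the labels' protocols.

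FPKM were summed over the loci of a symbol, and log2(FPKM + 1) was tested with limma 3.58.1 (eBayes with trend) between 2 groups, where either group's mean reached 1 FPKM. 1 gene with a failed FPKM was left out. Counts were tested with edgeR 4.0.16 (quasi-likelihood, TMM, filterByExpr) over all 6 RIP libraries in R 4.3.3. Also left out were 27 symbols of the RIP tables written as dates (0.0206 to 0.0489% of counts). TMM factors were 1.45 and 1.6 in IgG_RIP and 0.782 to 0.846 in the other libraries. Both fits were tested on simulated data. P-values were Benjamini-Hochberg adjusted over all genes, with calls at an adjusted p under 0.05. Alternatives were DESeq2 1.42.0, other scalings, filters and pseudocounts, a replicate block and leaving out each library, and, chosen after seeing the data, a filter on the mean FPKM over both groups.

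The members, the gene lists and the tests were chosen with earlier results of these data known. In each comparison and class up to 4 called members with the smallest adjusted p were named, or up to 2 with the highest mean where fewer than 2 were called, and from each list up to 4 called genes. The genes not called in HU_Flag_RIP against Flag_RIP, Hist1h2bf, the testis genes after HU and Hist1h4i in the knockdown were named after their values were seen. Figures were drawn with matplotlib 3.10.9.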

Additional observations from a re-analysis of the deposited data

How the results depend on the processing

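With 2 libraries a group, calls rest on few residual degrees of freedom, and where a group is left with 1 library its spread is assumed to equal that of the others. Low counts limit the genes with at most 3 counts, and the 4.9 to 14.2 fragments behind a median FPKM value limit the RNA-seq calls. In HU_Flag_RIP against Flag_RIP every alternative kept the count within 1.5 times, at 35 to 55 lower and 0 higher, 50 with DESeq2, and 277 of 280 checks on named genes kept call and direction.

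The counts that moved by over 1.5 times were these, and their cause was not tested beyond what the filters themselves remove. In mESC against MEF the genes higher numbered 4 with no filter and 3 with a filter at 5 FPKM, and leaving out 1 library gave 0 to 13 higher and 1 to 11 lower. In Dppa5a_KD against KD_control a filter at 5 FPKM left 8 lower of 9 tested, median-ratio scaling gave 1 higher, and leaving out 1 library gave 24 to 33 lower and 1 to 2 higher. In KD_control against mESC the genes higher numbered 3 with no filter and 3 with a filter at 5 FPKM, median-ratio scaling gave 6 lower and a common sum 5 lower, and leaving out 1 library gave 4 to 26 higher and 2 to 25 lower. Library size alone gave 6 higher in Flag_RIP against IgG_RIP and 45 lower in HU_Flag_RIP against IgG_RIP. Leaving out 1 library gave 3 to 28 higher in the first, 1 to 25 lower in the second and 35 to 54 lower in HU_Flag_RIP against Flag_RIP. Among the genes named by the rule and followed under the alternatives, the direction reversed for these, none of which was called: Hist1h1d in mESC against MEF (-0.05 with median-ratio scaling, -0.09 without the second mESC library, -0.06 without the second MEF library, and -0.09 to 0.17 over the libraries left out), Hist1h1b in Flag_RIP against IgG_RIP (-0.08 with library size alone), Hist1h4a in HU_Flag_RIP against IgG_RIP (-0.69 with library size alone, -0.09 to 0.60 over the libraries left out) and Hist1h4d there (-0.49 to 0.23 over the libraries left out).

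The labels give the groups the same replicate numbers but no shared culture or day. Same-numbered libraries deviated together with a correlation of -0.551 in mESC against MEF, 0.0125 in the knockdown, 0.0556 in KD_control against mESC, -0.0167 in Flag_RIP against IgG_RIP, -0.0303 in HU_Flag_RIP against IgG_RIP and 0.395 in HU_Flag_RIP against Flag_RIP. With the replicate block the calls were 12 higher and 9 lower in mESC against MEF (3324 and 3084 of all 12875 genes). They were 3 and 31 in the knockdown (1860 and 3436 of 12345) and 10 and 10 in KD_control against mESC (3788 and 2140 of 12595). In RIP they were 31 and 0 in Flag_RIP against IgG_RIP (236 and 272 of 10473). They were 1 and 27 in HU_Flag_RIP against IgG_RIP (291 and 326) and 0 and 55 in HU_Flag_RIP against Flag_RIP (27 and 59).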
